A study of Mus musculus with 6 samples.

Results

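The genes described here encode the non-collagenous glycoproteins of the extracellular matrix: laminins, nidogens, perlecan and agrin of basement membranes, elastin with its fibulins, fibrillins and emilins, the matricellular proteins, fibronectin and vitronectin, the small leucine-rich proteoglycans and the matrilins. They were taken by symbol from the protein-coding genes of the count table and number 46 of 41795 features. Activated cancer stem cells (CSCs) were compared with quiescent CSCs, with 3 libraries each. All 6 libraries were made from breast cancer cells of FVB/N-Tg(MMTV-PyVT)634Mul/J mice. Both states therefore carry the transgene, in which the mouse mammary tumour virus promoter drives the polyoma virus middle T antigen in mammary epithelium. The term quiescent CSCs denotes tumour-initiating cells resting outside the cell cycle, and activated CSCs are the state labelled as having left that rest. Neither tumour initiation nor cell cycle exit was tested here. How cells were isolated or activated, the age of the mice, and whether libraries came from separate animals or cultures are not given in the sources used here, and the p-values cover only differences among these libraries, which may be technical.

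Basement membranes are thin sheets beneath epithelium, built from laminin trimers of an alpha, a beta and a gamma chain that are tied to a collagen IV network by nidogen and perlecan. Elastic fibres have a core of elastin laid down on fibrillin microfibrils, with fibulins and emilins as assembly factors. Matricellular proteins such as thrombospondins, tenascins, osteopontin and periostin add little mechanical strength and instead modify how cells attach and signal. In mammary tissue the basement membrane comes from epithelium and its neighbours together, while elastin, fibrillins, decorin and lumican are best known as products of fibroblasts.

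Libraries held 17785331 to 20510377 counts. Levels are given as CPM (counts scaled to a common library total). Levels of different genes are compared as CPM per kb of gene model, except in rankings by level and where CPM is named. Mki67, a marker of cycling cells, averaged 239 ± 19.4 CPM in activated CSCs and 49.8 ± 1.37 CPM in quiescent CSCs (SD, n = 3 each). Epithelial markers were read beside the breast label, and they bear on epithelium but cannot check the organ. The keratin gene Krt8 was at 2319 ± 69.6 CPM in activated and 2435 ± 78.1 CPM in quiescent CSCs. Activated replicate 1 differed more from the other activated libraries (chi-square per degree of freedom 7.41 and 7.99) than these did from each other (4.01), and quiescent pairs gave 4.01 to 4.96. Results that turn on this or another library are given with and without it.

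The matrix genes divided by kind. In activated CSCs 9 of 11 tested elastic fibre genes rose, 3 of them (Efemp2, Emilin1 and Emilin2) with calls that ended when single libraries were left out. Tenascin C about doubled, and thrombospondin 1, fibronectin, osteopontin and 6 of 11 laminin chains fell. Among these chains the Lama3 call also ended when single libraries were left out. Of the 46 genes, 41 had enough counts to be tested, and 20 of these were higher and 11 lower in activated CSCs at an adjusted p under 0.05, while 10 did not pass. Over all 15223 features tested, 24.1% were higher and 23.4% lower (47.5% in either direction). High-count genes are called more often, and 20 of the 22 matrix genes with a mean of at least 100 CPM were called, against 64.0% of all features at that level. The 3 libraries of one state did not overlap those of the other for 33 of the 41 genes, against 55.9% of all features tested. A change of at least 1.5-fold without overlap was seen for 8 higher and 3 lower genes, against 17.7% of all features. The shares for overlap and for this change were not matched for level. The median log2 fold change of the 41 genes was 0.17, beside -0.0032 over all features. Because the filter keeps a gene for its counts in either state, the 5 untested genes are described by their counts at the end.

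**Figure D1:**
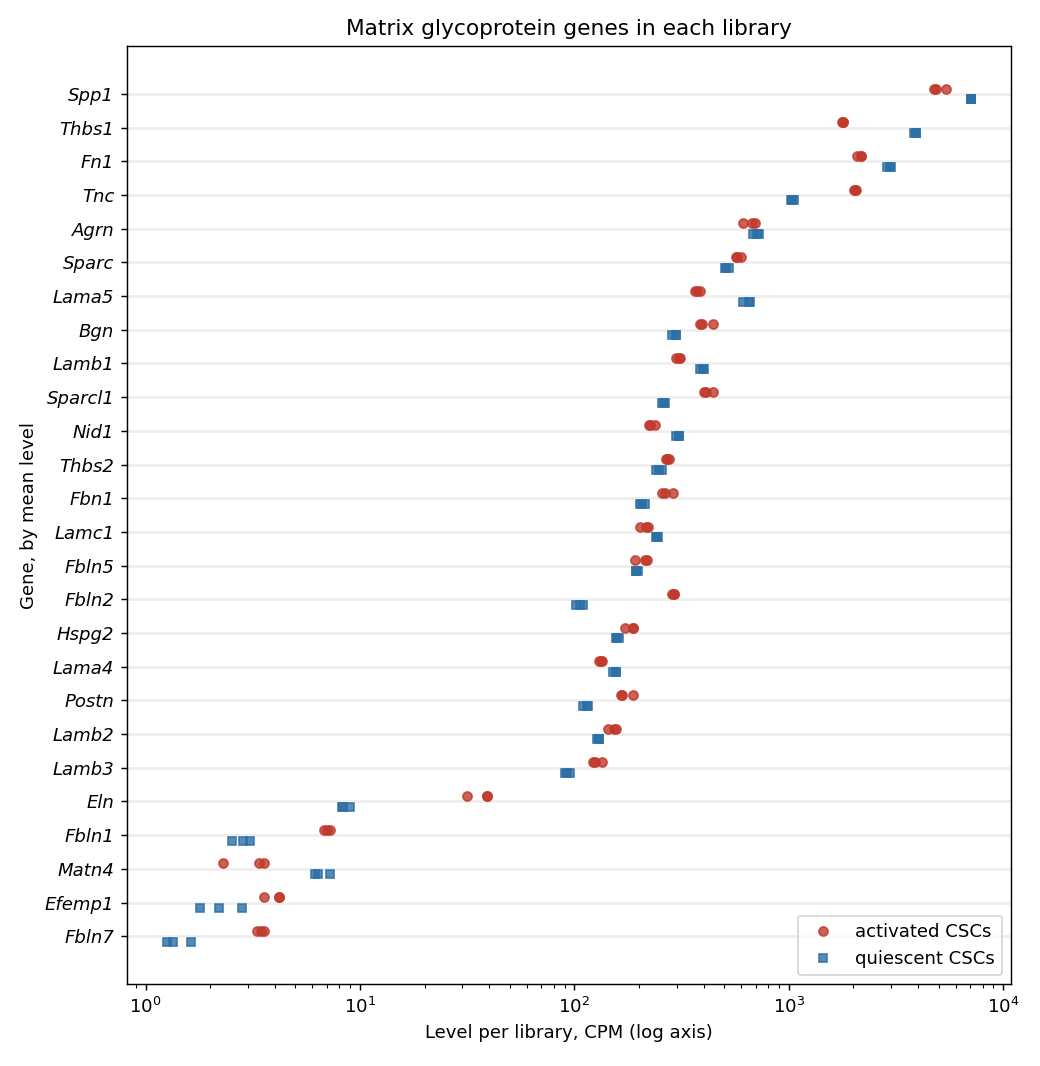
Level of 26 matrix glycoprotein genes in each library, in CPM on a log axis, ordered by mean level. Red circles are the 3 activated and blue squares the 3 quiescent CSC libraries. Spp1, Thbs1 and Fn1 lie further left in activated CSCs, and Tnc, Fbln2 and Eln further right. Agrn and Fbln5 overlap.

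Osteopontin (Spp1, NCBI gene 20750), a secreted phosphoprotein that binds integrins and CD44, was the most abundant member. It stood at 5427, 4831 and 4748 CPM in activated CSCs, against 7089, 7072 and 7041 CPM in quiescent CSCs. The activated libraries were all lower and spread more widely, with replicate 1 the highest of them (log2 fold change -0.50, SE 0.05, adjusted p = 3.1e-07). Per length it made up 59.4 ± 1.76% of the summed level of all 46 genes in activated and 65.6 ± 0.329% in quiescent CSCs (SD, n = 3 each, exact two-sided permutation p = 0.1, the smallest that 3 against 3 libraries can give). The whole set took 1.66 ± 0.0293% of all counts in activated and 2.03 ± 0.0127% in quiescent libraries. Without Spp1 the set summed to 11455 to 11691 CPM in activated and 13106 to 13475 CPM in quiescent libraries. With Thbs1 left out too, a choice made after the values were seen, the direction turned, at 9666 to 9914 CPM in activated and 9276 to 9541 CPM in quiescent libraries.

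Thrombospondin 1 and tenascin C, both abundant, moved in opposite directions. Thbs1 (NCBI gene 21825, GRCm38 chr2:118111876-118127133), which encodes a platelet and matrix glycoprotein that restrains angiogenesis and activates latent TGF-beta, was at 1789, 1777 and 1783 CPM in activated CSCs. Quiescent CSCs had 3830, 3932 and 3934 CPM of Thbs1. The gap between the states was far wider than the spread within either (log2 -1.13, SE 0.04, adjusted p = 3.3e-13). Tnc (NCBI gene 21923, GRCm38 chr4:63959785-64047015, minus strand), an oligomeric glycoprotein of remodelling stroma and tumour stem cell niches, was at 2036, 2058 and 2017 CPM in activated CSCs, against 1023, 1034 and 1053 CPM in quiescent CSCs. All activated libraries were near 2 times the quiescent level (1.96-fold, log2 0.97, SE 0.04, adjusted p = 1.4e-12). Per length, Tnc stood at 0.906 ± 0.0113 of the Thbs1 level in activated and 0.211 ± 0.00206 in quiescent CSCs.

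Other matricellular genes mostly rose, by less. Sparcl1, a SPARC-related anti-adhesive glycoprotein also called hevin, was at 443, 403 and 409 CPM in activated CSCs, against 261, 257 and 264 CPM in quiescent CSCs (log2 0.68, SE 0.04, adjusted p = 5.3e-10). Postn, periostin, a ligand of integrins that promotes collagen assembly and metastatic niches, was at 188, 167 and 164 CPM in activated and 116, 110 and 114 CPM in quiescent CSCs (log2 0.61, SE 0.05, adjusted p = 4.1e-08). Neither gene overlapped between states, and activated replicate 1 was the highest library for both. Sparc, the collagen-binding glycoprotein osteonectin, rose 1.13-fold, with libraries at 568 to 600 CPM in activated and 504 to 525 CPM in quiescent CSCs. Thbs2, the close relative of Thbs1, changed the other way from it, at 272 ± 4.65 CPM in activated and 248 ± 8.58 CPM in quiescent CSCs (log2 0.14, SE 0.04, adjusted p = 0.0071). The Thbs2 call ended without quiescent replicate 2 (log2 0.11, adjusted p = 0.0512). Thbs3 and Thbs4, the pentameric thrombospondins, did not pass, at 3.34 ± 0.38 and 0.65 ± 0.0716 CPM in activated against 2.48 ± 0.0998 and 0.595 ± 0.244 CPM in quiescent CSCs. Their 95% intervals of log2 fold change ran from 0.04 to 0.82 for Thbs3 and from -0.71 to 0.97 for Thbs4.

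Fibronectin (Fn1, NCBI gene 14268), the adhesive glycoprotein that integrins assemble into fibrils, was at 2074, 2170 and 2173 CPM in activated CSCs, against 2884, 2978 and 2985 CPM in quiescent CSCs. Every activated library was lower (log2 -0.46, SE 0.04, adjusted p = 5e-08). In plain CPM, Tnc was below Fn1 in every library, at 0.953 ± 0.0271 times its level in activated and 0.352 ± 0.00393 times in quiescent CSCs, a scale added after the values were seen. Per length, Tnc was at 1.09 ± 0.031 times the Fn1 level in activated and 0.402 ± 0.00449 times in quiescent CSCs (SD, n = 3 each, exact two-sided permutation p = 0.1). The gene counts join all splice forms, so forms of fibronectin or tenascin C with extra domains were not resolved.

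Among the 11 tested elastic fibre genes, 9 were higher and 0 lower, with a median log2 fold change of 0.38. Eln (NCBI gene 13717, GRCm38 chr5:134702595-134747368, minus strand), which encodes the elastin core itself, rose most of the 41 tested genes. It was at 31.6, 39.2 and 39 CPM in activated CSCs, against 8.27, 8.33 and 8.98 CPM in quiescent CSCs. Activated replicate 1 was the lowest of the activated libraries and still above all quiescent ones (4.29-fold, log2 2.10, SE 0.10, adjusted p = 1.2e-11). Fbln2 (NCBI gene 14115, GRCm38 chr6:91212764-91272540), fibulin 2, which links elastic fibres with laminin and other basement membrane proteins, was at 286, 292 and 292 CPM in activated and 106, 101 and 110 CPM in quiescent CSCs. The libraries within each state lay close together for Fbln2 (log2 1.46, SE 0.04, adjusted p = 1.9e-14).

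The rarer fibulins Fbln1, Fbln7 and Efemp1 rose as well, by 1.76-fold for Efemp1, 2.43-fold for Fbln7 and 2.49-fold for Fbln1. Fbln1, a fibulin of basement membranes and elastic fibres, was at 7, 6.79 and 7.28 CPM in activated CSCs, against 2.53, 3.08 and 2.84 CPM in quiescent CSCs (log2 1.32, SE 0.15, adjusted p = 1.5e-06). Fbln7, a small adhesive member, was at 3.3, 3.56 and 3.47 CPM in activated CSCs, against 1.35, 1.62 and 1.26 CPM in quiescent CSCs (log2 1.28, SE 0.20, adjusted p = 5.7e-05). Efemp1, or fibulin 3, was at 3.99 ± 0.37 CPM in activated and 2.27 ± 0.516 CPM in quiescent CSCs (log2 0.81, SE 0.20, 95% interval 0.39 to 1.23, adjusted p = 0.0028). None of these 3 genes overlapped between states, although each value rests on few counts, 65 to 86 for Efemp1 in an activated library and 33 to 50 in a quiescent library.

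The fibulins needed for elastin assembly differed less between states. Fbln5, which tethers elastin to microfibrils, was at 192.6, 218.3 and 213.7 CPM in activated and 193.1, 194.5 and 198.9 CPM in quiescent CSCs. It did not pass (log2 0.09, SE 0.05, adjusted p = 0.11, 95% interval -0.0048 to 0.19). Activated replicate 1 lay just below all quiescent libraries, against the direction of the other activated libraries, and without it Fbln5 passed (log2 0.15, adjusted p = 0.000993). Efemp2, or fibulin 4, which brings lysyl oxidase to elastin, was at 50.6 ± 4.23 CPM in activated and 44.3 ± 3.14 CPM in quiescent CSCs, and the states overlapped (log2 0.19, adjusted p = 0.03). Its call ended without activated replicate 2 (adjusted p = 0.0839) or 3 (0.128), without quiescent replicate 1 (0.108) or 2 (0.143), and with DESeq2 (0.0512).

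Among the microfibril genes, Fbn1, fibrillin 1, was at 255, 289 and 264 CPM in activated CSCs, against 202, 212 and 207 CPM in quiescent CSCs (log2 0.38, SE 0.04, adjusted p = 2.3e-06). Fbn2, the mainly fetal fibrillin, was at 3.72 ± 0.46 CPM in activated and 3.58 ± 0.178 CPM in quiescent CSCs and did not pass (95% interval -0.30 to 0.41). Eln stood at 0.324 ± 0.0285 of the Fbn1 level per length in activated and 0.0985 ± 0.00515 in quiescent CSCs. Emilin1 and Emilin2, microfibril-associated glycoproteins, were at 30 ± 3.52 and 17.81 ± 0.495 CPM in activated against 25 ± 0.732 and 15.2 ± 0.874 CPM in quiescent CSCs (log2 0.27 and 0.23, adjusted p = 0.015 and 0.036). The Emilin1 call ended without activated replicate 2 or 3 or quiescent replicate 3 (adjusted p = 0.0747, 0.0739 and 0.0605). The Emilin2 call ended without activated replicate 1 or 3 or quiescent replicate 1 or 3 (adjusted p = 0.0545, 0.106, 0.11 and 0.109), and also with DESeq2 (0.105) and with no filter beyond 1 count (0.0749).

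**Figure D2:**
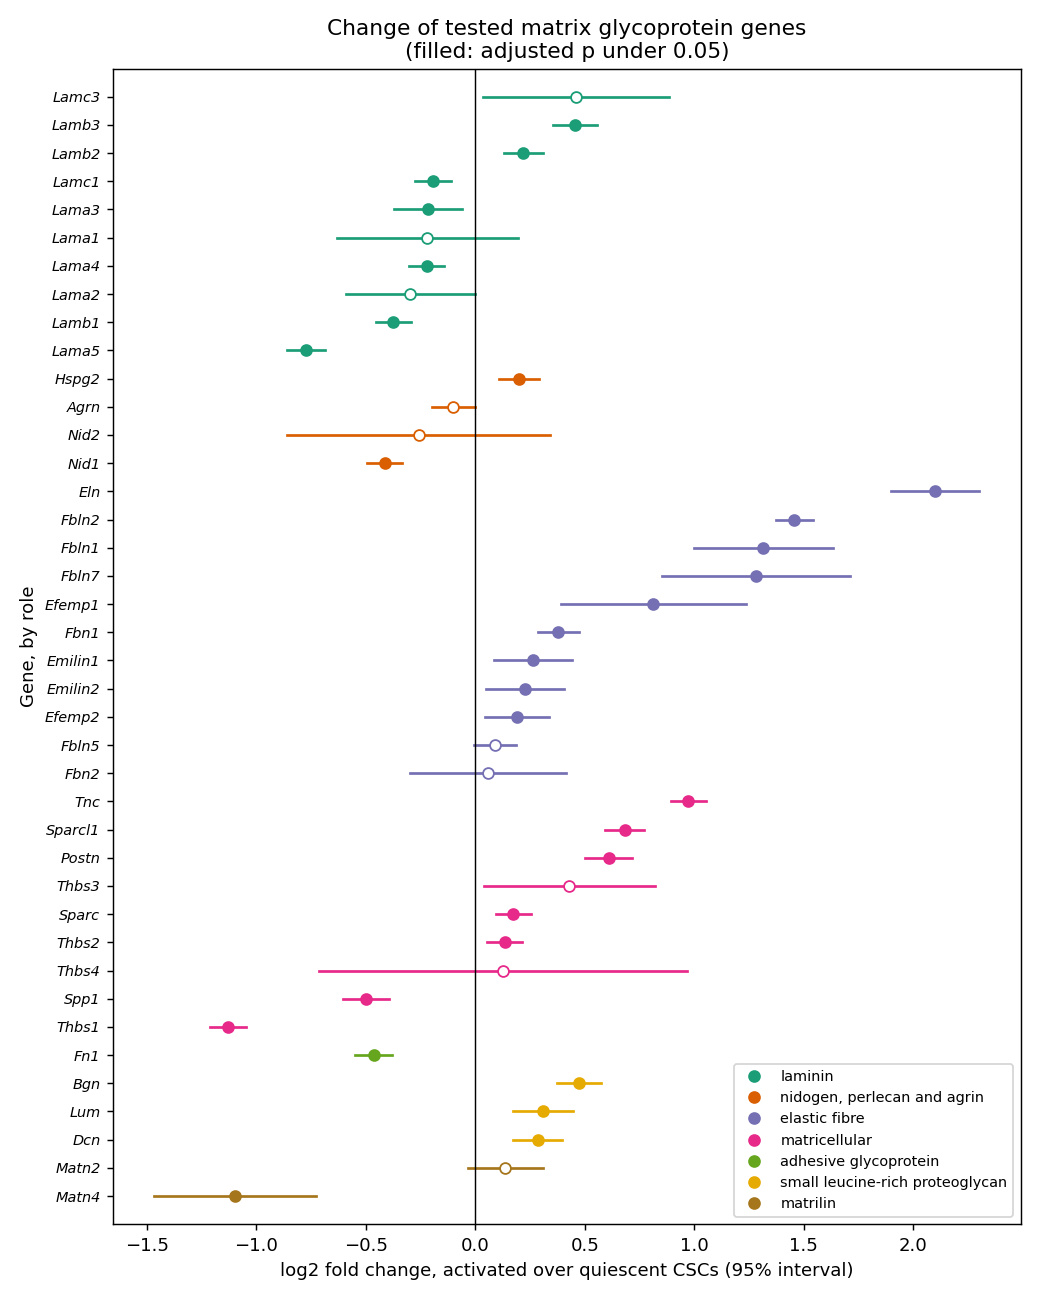
log2 fold change of activated over quiescent CSCs for 40 tested matrix glycoprotein genes, grouped by role, with 95% intervals as lines. Filled points passed an adjusted p under 0.05. The elastic fibre points all lie right of 0, and among the laminin genes drawn past the threshold Lamb2 and Lamb3 alone lie right of it.

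The laminin genes fell more often than they rose. Of the 11 chains, 6 were lower, 2 higher and 3 missed the threshold (median log2 fold change -0.22). Lama5 (NCBI gene 16776, GRCm38 chr2:180176373-180225912, minus strand), the alpha chain of most adult epithelial basement membranes, fell furthest. It was at 366, 373 and 386 CPM in activated CSCs, against 611, 659 and 652 CPM in quiescent CSCs (log2 -0.77, SE 0.04, adjusted p = 8e-11). Its partners in the main epithelial laminin, the beta 1 and gamma 1 chains, fell less, Lamb1 to 305 ± 7.31 CPM in activated CSCs, against 395 ± 9.27 CPM in quiescent CSCs (log2 -0.37, adjusted p = 3.1e-07). Lamc1 fell to 212 ± 9.57 CPM in activated CSCs, against 243 ± 1.47 CPM in quiescent CSCs (log2 -0.19, adjusted p = 0.00064). Lama5 per Lamc1, by length, was 1.16 ± 0.0396 in activated and 1.73 ± 0.0604 in quiescent CSCs. Lama4, the alpha chain of vessel and mesenchymal laminins, was at 134, 130 and 133 CPM in activated CSCs, against 156, 151 and 157 CPM in quiescent CSCs (log2 -0.22, adjusted p = 0.00013).

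The beta chains shifted against each other. Lamb2, which takes the place of beta 1 in mature laminins such as those of the kidney filter, rose to 151 ± 6.52 CPM in activated CSCs, against 130 ± 2.16 CPM in quiescent CSCs (log2 0.22, adjusted p = 0.00033). Per length, Lamb2 stood at 0.515 ± 0.01 of Lamb1 in activated and 0.341 ± 0.0108 in quiescent CSCs. Lamb1 made up 48 ± 0.687% of the beta chain level per length in activated and 60.2 ± 0.659% in quiescent CSCs, and Lamb3 made up 27.3 ± 1.14% in activated and 19.3 ± 0.315% in quiescent CSCs (SD, n = 3 each, exact two-sided permutation p = 0.1 for both). The summed beta chain level was 108 ± 2.93 CPM per kb in activated and 112 ± 2.02 CPM per kb in quiescent CSCs (exact permutation p = 0.2). The alpha chain sum was 56.9 ± 0.897 CPM per kb in activated and 83.9 ± 1.95 CPM per kb in quiescent CSCs (exact permutation p = 0.1), and was lower in every activated library.

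Lamb3 and Lama3, a beta and an alpha chain of epithelial laminin in skin and mammary gland, did not move together. Lamb3 was at 124, 122 and 134 CPM in activated CSCs, against 91.9, 90.4 and 95.5 CPM in quiescent CSCs (log2 0.46, SE 0.05, adjusted p = 4.7e-07). Lama3 was at 22.4 ± 0.535 CPM in activated and 26.1 ± 1.3 CPM in quiescent CSCs (log2 -0.22, adjusted p = 0.022). The states did not overlap for either gene, and the directions were opposite. The Lama3 call ended with DESeq2 (adjusted p = 0.0601), without activated replicate 3 (0.0772) and without quiescent replicate 1 (0.0726) or 3 (0.072). Per length Lama3 stood at 0.0637 ± 0.00466 of the Lamb3 level in activated and 0.101 ± 0.00377 in quiescent CSCs. Its gene model joins a short and a long form that were not resolved, and length scaling by the long model lowers its value.

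Lama1, Lama2 and Lamc3, chains of embryonic, muscle and nerve basement membranes, were scarce and did not pass. They stood at 3.3 ± 0.324, 6.11 ± 0.378 and 2.94 ± 0.469 CPM in activated CSCs, against 3.84 ± 0.924, 7.51 ± 1.2 and 2.14 ± 0.18 CPM in quiescent CSCs. Their log2 intervals ran from -0.63 to 0.19, from -0.59 to -0.0018 and from 0.03 to 0.89.

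**Figure D3:**
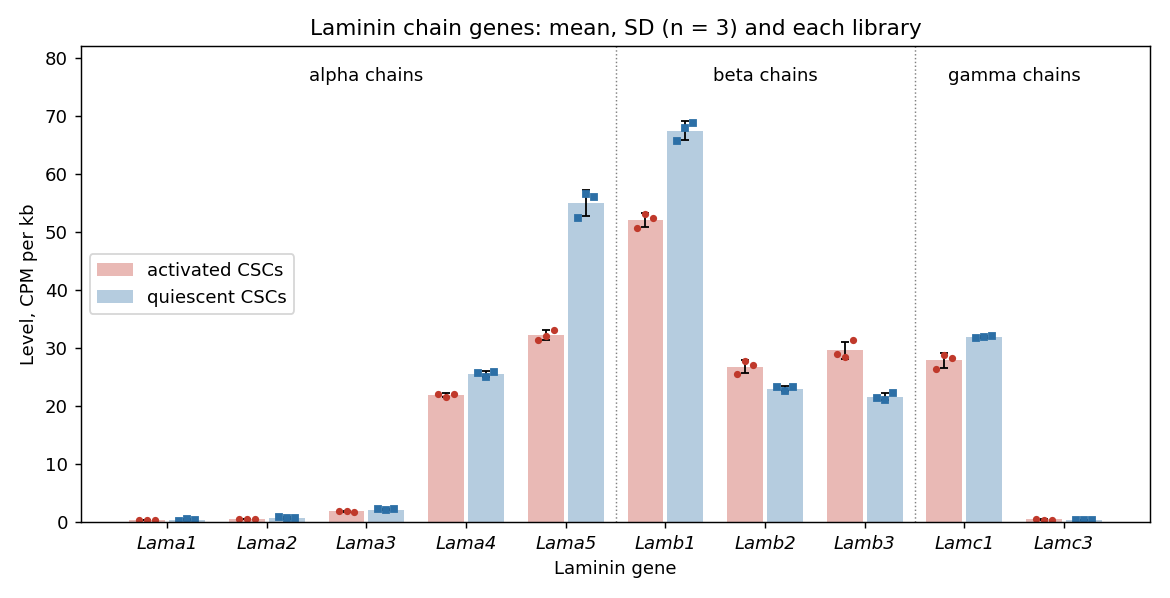
Level of 10 laminin chain genes in CPM per kb of gene model. Bars are means, error bars SD (n = 3 libraries), and points the libraries, with activated CSCs in red at left and quiescent CSCs in blue at right of each pair. Lama5, Lamb1 and Lamc1 are lower in activated CSCs and Lamb2 and Lamb3 higher.

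The proteins that bind laminin into the sheet followed different courses. Nid1, nidogen 1, which bridges laminin gamma 1 and collagen IV, was at 225, 237 and 223 CPM in activated CSCs, against 307, 296 and 308 CPM in quiescent CSCs (log2 -0.41, SE 0.04, adjusted p = 1.2e-07). Hspg2, which encodes perlecan, rose to 182 ± 9.4 CPM in activated CSCs, against 158 ± 3.11 CPM in quiescent CSCs (log2 0.20, SE 0.04, adjusted p = 0.0009). Agrn, agrin, the heparan sulphate proteoglycan that links laminin to dystroglycan, was at 612, 672 and 692 CPM in activated and 681, 723 and 712 CPM in quiescent CSCs. The states overlapped and Agrn did not pass (log2 -0.10, adjusted p = 0.085, 95% interval -0.20 to -0.0028), while without activated replicate 3 it did (log2 -0.13, adjusted p = 0.0391). Nid2 was at 1.33 ± 0.33 CPM in activated and 1.58 ± 0.448 CPM in quiescent CSCs and did not pass (95% interval -0.86 to 0.34). It overlaps 2700060E02Rik on the other strand, which had 7665 counts over the 6 libraries beside 163 for Nid2, and since the counting strand is not given the source of the Nid2 counts is uncertain.

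All 3 small leucine-rich proteoglycan genes rose. Bgn, biglycan, was at 443, 395 and 386 CPM in activated CSCs, against 297, 287 and 296 CPM in quiescent CSCs (log2 0.48, SE 0.05, adjusted p = 4.8e-07). Dcn, decorin, a collagen-binding proteoglycan that restrains TGF-beta, was at 103 ± 7.13 CPM in activated and 84.5 ± 1.8 CPM in quiescent CSCs (log2 0.29, adjusted p = 0.00026). Lum, lumican, which spaces collagen fibrils, was at 32.2 ± 0.742 CPM in activated and 26 ± 0.221 CPM in quiescent CSCs (log2 0.31, adjusted p = 0.00076). No library of one state overlapped the other for any of them. Dcn and Lum lie side by side on chromosome 10, on the same strand and 47.3 kb apart.

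Matrilins, adaptor proteins first known from cartilage, were low. Matn4 was at 2.3, 3.56 and 3.37 CPM in activated CSCs, against 7.25, 6.17 and 6.36 CPM in quiescent CSCs, and all activated libraries were lower (log2 -1.10, SE 0.17, adjusted p = 6.2e-05). It overlaps Rbpjl on the other strand, which had 28 counts in all beside 539 for Matn4. Matn2 was at 30.9 ± 2.47 CPM in activated and 28.1 ± 2.51 CPM in quiescent CSCs and did not pass (95% interval -0.03 to 0.31). Matn1 had 0 counts in all 6 libraries, which allows up to 0.053 CPM over the activated and 0.0541 CPM over the quiescent total (3 counts, counting error only). Vtn, vitronectin, a serum adhesion protein made mainly by liver, had 0 counts over the activated and 4 over the quiescent libraries, and Matn3 had 8 over the activated and 1 over the quiescent libraries. The Matn3 ratio was 7.83 with a 95% interval from 1.05 to 347 (exact Clopper-Pearson on the counts, covering counting error only). Emilin3 had 25 counts over the activated and 30 over the quiescent libraries, and Tnxb, tenascin X, had 6 over the activated and 5 over the quiescent libraries. The ratios were 0.815 (0.46 to 1.43) for Emilin3 and 1.17 (0.299 to 4.86) for Tnxb.

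Promoter windows are shown for 3 of these genes, the most abundant gene that rose (Tnc), the gene above 100 CPM with the largest rise (Fbln2) and the most abundant gene, which fell (Spp1). The windows hold 250 bases before to 50 after the annotated start, 5′ to 3′ on the gene's strand, from RefSeq on GRCm38.p6: Tnc at chr4:64046966-64047265 on the minus strand, Fbln2 at chr6:91212514-91212813 and Spp1 at chr5:104434861-104435160 on the plus strand. Capitals mark every match, on either strand, to TATAAA, the core promoter word, to GGGCGG, known as the box bound by Sp1, to TGACTCA with its counterpart on the other strand, bound by AP-1 proteins, or to GGAATG, the word bound by TEAD proteins, and no printed matches overlap.
Tnc: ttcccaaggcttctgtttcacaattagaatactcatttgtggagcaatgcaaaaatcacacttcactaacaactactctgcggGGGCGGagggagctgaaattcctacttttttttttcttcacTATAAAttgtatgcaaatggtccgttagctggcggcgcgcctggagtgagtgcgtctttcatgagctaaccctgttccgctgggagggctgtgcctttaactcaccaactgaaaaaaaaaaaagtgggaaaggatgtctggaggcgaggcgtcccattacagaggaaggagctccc
Fbln2: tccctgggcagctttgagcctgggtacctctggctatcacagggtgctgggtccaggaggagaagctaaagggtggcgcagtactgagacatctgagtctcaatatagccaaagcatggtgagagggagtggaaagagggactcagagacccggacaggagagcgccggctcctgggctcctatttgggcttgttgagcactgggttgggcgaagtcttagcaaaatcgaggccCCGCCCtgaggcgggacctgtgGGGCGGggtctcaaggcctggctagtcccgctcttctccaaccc
Spp1: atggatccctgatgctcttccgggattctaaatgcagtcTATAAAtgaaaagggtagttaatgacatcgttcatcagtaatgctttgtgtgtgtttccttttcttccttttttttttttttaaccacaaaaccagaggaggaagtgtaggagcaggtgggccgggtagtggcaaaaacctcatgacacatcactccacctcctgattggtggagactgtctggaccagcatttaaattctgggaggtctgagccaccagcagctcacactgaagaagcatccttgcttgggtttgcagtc
The Tnc window holds 1 GGGCGG and 1 TATAAA, the latter 126 bases before the start. The Fbln2 window holds 2 matches to GGGCGG and the Spp1 window 1 TATAAA, which lies 211 bases before the start. RefSeq windows were found for 30 of the 46 genes, 41 windows in all, of which 24 (58.5%) hold GGGCGG, against 46.5% of 21033 windows of protein-coding genes and 35.7% of all 32851. The median GC content of the member windows was 60.3%, against 56.7% for protein-coding genes. TATAAA was found in 14.6% of member windows, 12.5% of protein-coding windows and 13.6% of all windows. GGAATG was in 19.5% of member, 13.6% of protein-coding and 14.7% of all windows. The AP-1 words were in 2.44% of member, 4.71% of protein-coding and 5.2% of all windows. By direction, GGGCGG was in 12 of 23 windows of genes that rose and 4 of 7 of genes that fell. Windows of the same gene overlap in part, and a match is a match of letters only.

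Genes that work with these proteins were counted from lists drawn up by function. Of 24 matrix receptor genes, 6 rose, 10 fell and 8 missed the threshold (median log2 fold change -0.0062). Itga3, the alpha 3 integrin of epithelial laminin receptors, fell to 530 ± 38.2 CPM in activated CSCs, against 1008 ± 16.6 CPM in quiescent CSCs (log2 -0.93, adjusted p = 6.6e-11). Itgb3, the beta 3 integrin that binds osteopontin, vitronectin and fibronectin as alpha V beta 3, rose to 332 ± 23.5 CPM in activated CSCs, against 151 ± 2.62 CPM in quiescent CSCs. Of 14 elastic fibre and microfibril partner genes, 9 rose, 3 fell and 2 did not pass (median 0.50). Ltbp2, a latent TGF-beta binding protein that associates with fibrillin, rose 3.36-fold, and Lox, the lysyl oxidase that cross-links elastin and collagen, rose 1.86-fold to 98.8 ± 2.2 CPM in activated CSCs, against 53 ± 2.25 CPM in quiescent CSCs.

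Of 18 tested basement membrane collagens and partners, 10 rose and 4 fell (median 0.40). Col7a1, the anchoring fibril collagen, rose 2.22-fold, and Col18a1, which carries endostatin, fell to 706 ± 15.5 CPM in activated CSCs, against 1146 ± 3.99 CPM in quiescent CSCs. Of 16 tested other matricellular and leucine-rich proteoglycan genes, 10 rose and 3 fell (median 1.004). Smoc1 and Smoc2, calcium-binding matrix proteins that both rose, are counted in both of these lists. Among them Wisp2 (CCN5) was at 48.3 ± 4.68 CPM in activated and 3.7 ± 0.727 CPM in quiescent CSCs, and Tgfbi, an adhesion protein induced by TGF-beta, at 12.9 ± 2.36 CPM in activated and 2.52 ± 0.25 CPM in quiescent CSCs.

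Markers of fibroblasts moved with the elastic fibre and proteoglycan genes. Of 11 tested fibroblast markers, none of them a member of the set, 10 rose and 0 fell (median 0.85), with Col1a1 at 592 ± 69.4 CPM in activated and 269 ± 6.87 CPM in quiescent CSCs and Col1a2 at 366 ± 13.8 CPM in activated and 237 ± 7.76 CPM in quiescent CSCs. The 12 markers of this list summed to 1726 to 1891 CPM in activated and 913 to 930 CPM in quiescent libraries. The collagen genes Col1a1, Col1a2, Col3a1, Col5a1 and Col6a3, themselves matrix genes, held most of these sums. Among the markers that are not collagens, Pdgfrb rose 1.52-fold, Thy1 2.14-fold and Fap 1.80-fold. No marker of the list was at 0. Pdgfra, the fibroblast receptor gene, was at 40.1 ± 3.19 CPM in activated and 39 ± 1.89 CPM in quiescent CSCs and did not pass. Mfap5, which rose, is in this list and in that of elastic fibre partners. In such bulk libraries more cells of a type and more RNA per cell cannot be told apart, and the part of fibroblast RNA in the rise of the matrix genes was not tested. Endothelial markers, whose cells also make laminin alpha 4 and perlecan, were near 0. Their 10 genes summed to 7.05 to 8.49 CPM in activated and 6.98 to 9.62 CPM in quiescent libraries, with Cldn5 at 0 in all. Of 6 tested, 1 (Esam) fell, and this call ended with DESeq2 and without activated replicate 1 or 3 or quiescent replicate 1 or 3, leaving 0.

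**Figure D4:**
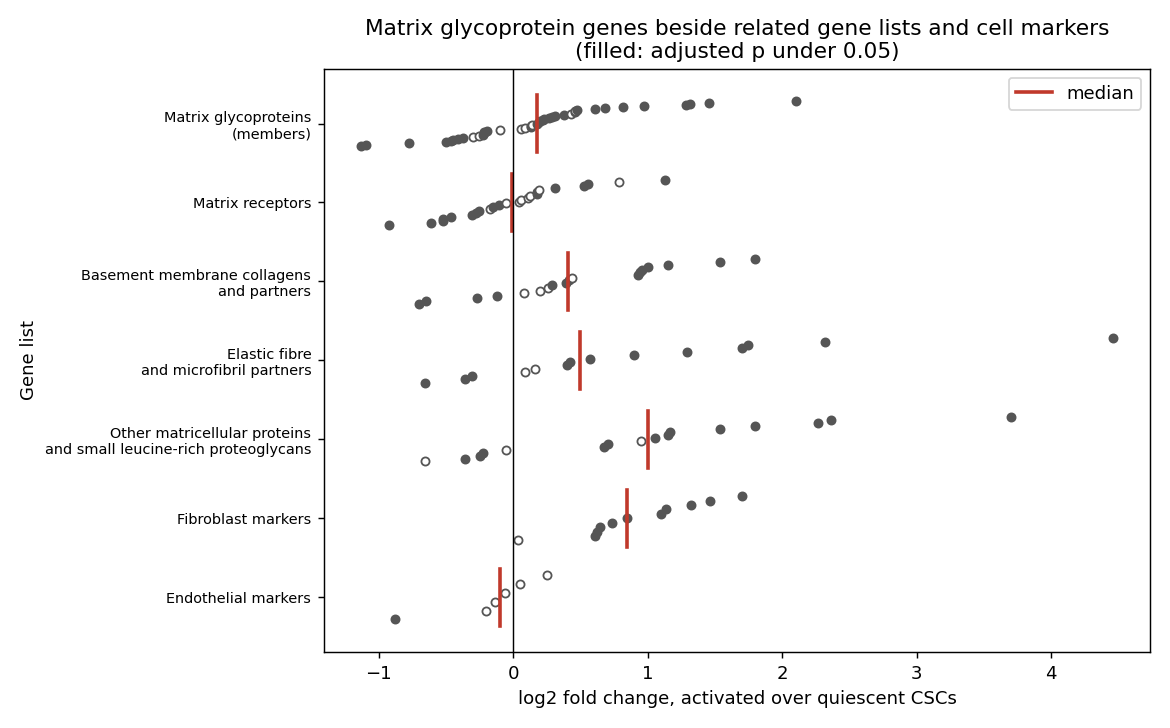
log2 fold change of activated over quiescent CSCs for each tested gene of the matrix glycoprotein set and of 6 other lists. Each point is a gene, filled where the adjusted p was under 0.05, and red lines are medians. The medians were 0.17 for the matrix glycoproteins and 0.85 for fibroblast markers, and the points of the matrix glycoprotein set lie on both sides of 0.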

How the data were processed

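RNA of 6 libraries was sequenced after Trizol extraction and NEBNext library preparation, per the labels' protocols. The authors deposited raw counts per gene, which the values bear out as whole numbers with unequal totals. Tools listed, per the submitters' processing notes, were featureCounts 1.5.0-p3, HISAT2 2.0.5 and StringTie 1.3.3b, with no role stated. The file's chromosome accessions are those of GRCm38, and the counting strand and the treatment of shared reads are not given in the sources used here.

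States were compared with edgeR 4.0.16 in R 4.3.3 by its robust quasi-likelihood test over all genes passing filterByExpr, with TMM scaling, no covariate and Benjamini-Hochberg adjustment over all 15223 features tested, at a threshold of 0.05. Each log2 fold change sets activated over quiescent CSCs, its SE taken from the test statistic. CPM use the scaled totals, and CPM per kb divide by the deposited gene length. The fit was first tested on data drawn from the libraries' own means. Members with a mean of at least 1 CPM are named, and in full those at 100 CPM or more or changed at least 1.5-fold without overlap. The members, lists and roles were chosen with earlier results of these data known. Lists are described by counts, with up to 2 genes chosen from each by level or adjusted p, and others named where they bear on a count or sum. Alternatives were RLE or no scaling, other filters, DESeq2 1.42.0, limma-voom (limma 3.58.1), protein-coding genes alone, a replicate block and leaving out each library. The values of 1 gene of the set enter the counts and sums and are not reported here. No libraries of the same state agreed within sampling noise, and each was counted once.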

Additional observations from a re-analysis of the deposited data

How the results depend on the processing

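Under the 8 planned changes of scaling, filter, tool or features, and leaving out each library in turn, the genes higher numbered 17 to 20 and the genes lower 10 or 11, and genes changed between activated and quiescent CSCs over all features numbered 6298 to 7700. The largest member shift under another scaling was 0.0022 on the log2 scale. Of the values of single genes under these settings, 538 kept their side of the threshold, 20 fell short of it and 2 newly passed. Values past the threshold in the main fit or the alternative reversed direction in 0 cases, and the direction of genes past it in neither was not counted. Those that changed side stand with the genes above. With plain CPM in place of CPM per kb, the activated minus quiescent share of the set became -8.38 percentage points for Thbs1 (-4.24 per length), 7.19 for Tnc (3.29) and -0.44 for all laminins (0.25), so the last has no firm direction. Likewise Lama5 among alpha chains became -7.42 (-9.02) and Lamb3 among beta chains 6.79 (8.02). Same-numbered libraries had correlations of deviations of -0.03 to 0.04. No shift shared by replicate number was seen, which cannot tell whether the libraries were paired by animal or batch. With the replicate block 19 genes were higher, 11 lower and 7042 genes changed between activated and quiescent CSCs, and Emilin2 lost its call (adjusted p = 0.0526). Few counts limit the genes under 10 CPM.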

Other observations

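Of 10 luminal markers 4 rose and 4 fell. The most abundant, Krt8 as given above and Krt18 at 1504 ± 163 CPM in activated and 1622 ± 45.4 CPM in quiescent CSCs, did not pass. Among those that passed, Krt19 rose 2.70-fold and Cldn4 fell to 0.412 times its quiescent level. Of 9 tested myoepithelial and basal markers 4 rose and 2 fell, with Krt14 at 626 ± 20.45 CPM in activated and 507 ± 16.8 CPM in quiescent CSCs and Krt17 at 235 ± 6.07 CPM in activated and 486 ± 18.2 CPM in quiescent CSCs. Of 9 tested pericyte and smooth muscle markers 3 rose and 3 fell. Notch3 was at 126 ± 12.8 CPM in activated and 122 ± 0.654 CPM in quiescent CSCs and did not pass. Mcam fell to 36.6 ± 1.07 CPM in activated CSCs, against 42.1 ± 1.52 CPM in quiescent CSCs, and Cspg4 rose 2.42-fold. Myh11, which did not pass, is in both the myoepithelial and the pericyte list. Only 1 of the pericyte markers fell with DESeq2, without activated replicate 3 or without quiescent replicate 3. Of 10 macrophage markers 5 rose and 1 fell (median log2 fold change 0.33), summing to 1093 to 1102 CPM in activated and 735 to 791 CPM in quiescent libraries, with Cd14 at 702 ± 9.31 CPM and Lyz2 at 260 ± 6.96 CPM in activated against 441 ± 8.79 and 206 ± 11.4 CPM in quiescent CSCs. Cd14 and Lyz2 held most of these sums. Adgre1, at 25 ± 2.02 CPM in activated and 24.4 ± 2.55 CPM in quiescent CSCs, did not pass, nor did Ptprc, C1qa or C1qb. The macrophage marker that fell, Cd68, lost its call without activated replicate 2 or 3 or quiescent replicate 1 or 3, leaving 0. The adipocyte marker tested, Fabp4, did not pass, at 2.91 ± 0.534 CPM in activated and 3.28 ± 0.41 CPM in quiescent CSCs. Setd4, named in the study's title, was at 9.71 ± 0.371 CPM in activated and 9.54 ± 0.644 CPM in quiescent CSCs and did not pass.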
